A study of Mus musculus with 6 samples.

Results

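The Leloir pathway enzymes turn galactose into UDP-galactose and glucose-1-phosphate. Of the 34745 genes in the deposited table, 5 carry the symbol of one of these enzymes (Galm, Galk1, Galk2, Galt and Ugp2). They were taken by symbol, and the pathway was chosen with earlier results of these data known. The RNA came from NOR-10 cells, an established line of mouse skeletal muscle fibroblasts for which the labels name no transgene. The D-gal group (n = 3 libraries) received D-gal, the D form of galactose, which the methods give as 20 mg/mL for 3 days, and the control group (n = 3 libraries) received PBS. The study used D-gal to induce senescence in these cells, and the comparison here asks how the genes for the enzymes that handle this sugar were expressed while it was supplied.

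In the pathway, galactose mutarotase (Galm) interconverts the anomers of the sugar, galactokinase (Galk1) phosphorylates it to galactose-1-phosphate, and the uridylyltransferase (Galt) exchanges the phosphorylated sugar with UDP-glucose, so that UDP-galactose and glucose-1-phosphate leave the reaction. UDP-glucose pyrophosphorylase (Ugp2) makes UDP-glucose from glucose-1-phosphate and UTP. Galk2 is a paralog of Galk1 that is best known as a kinase of N-acetylgalactosamine and takes galactose only poorly. Inherited loss of Galk1 or Galt causes galactosemia, and galactose that is not phosphorylated can be reduced to galactitol by aldose reductase.

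Library totals lay between 16876087 and 20830349 counts in the control group and between 13759108 and 15157064 in the D-gal group, so every D-gal library was shallower than every control library. Of the 10 fibroblast markers examined (such as Col1a1, Pdgfra and Thy1), none was at 0 in all libraries and 9 had enough counts to be tested. The summed FPKM of the 10 markers was 1378 to 1448 in the control group and 974 to 1334 under D-gal, ranges that did not overlap. FPKM values are counts corrected for gene length and library size. The part of this difference in the results below was not tested. Of the 8 myogenic markers, Pax7, Myf5 and Myod1 were at 0 in all libraries and the sum over the list was 2.29 to 2.76 in the control group and 1.69 to 1.92 under D-gal. The sums over epithelial, endothelial, macrophage and adipocyte markers reached at most 5.45 in any library. In bulk RNA, fewer cells of a type and less RNA per cell cannot be told apart. No label says that the replicates were separate cultures, so the p-values measure the spread between these libraries, which may be technical.

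The stretches of DNA before the start of Galk1, the member that was lower under D-gal, and of Ugp2, the most abundant member, are shown because both genes lie on the minus strand of chromosome 11 and differed in opposite directions. The windows are the 250 bases before the first start listed in RefSeq (GRCm38.p6, minus strand), chr11:116012720-116012969 for Galk1 and chr11:21371268-21371517 for Ugp2. Capitals mark matches, on either strand, to the E-box CACGTG, the GC box GGGCGG and the CCAAT box, none of which overlap one another here.
Galk1: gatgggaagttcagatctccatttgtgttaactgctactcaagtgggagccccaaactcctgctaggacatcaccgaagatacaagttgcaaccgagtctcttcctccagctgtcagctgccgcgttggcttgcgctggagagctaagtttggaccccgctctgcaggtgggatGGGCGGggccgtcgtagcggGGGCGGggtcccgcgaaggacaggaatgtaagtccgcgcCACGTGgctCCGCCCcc
Ugp2: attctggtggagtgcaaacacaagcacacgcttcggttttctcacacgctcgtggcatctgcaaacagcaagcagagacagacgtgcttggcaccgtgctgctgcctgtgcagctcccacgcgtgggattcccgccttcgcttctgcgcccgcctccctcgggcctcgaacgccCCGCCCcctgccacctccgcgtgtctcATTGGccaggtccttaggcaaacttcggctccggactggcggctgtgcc
The Galk1 window held 1 E-box, 17 bases before the start, and 3 GC boxes at 76, 56 and 8 bases. The Ugp2 window held 1 GC box at 76 bases and 1 CCAAT box at 49 bases, and 58 of its bases lie in an exon of Gm12043 on the opposite strand. Before a second RefSeq start of Ugp2 (chr11:21370630-21370879) there were 2 GC boxes, at 222 and 154 bases, and no CCAAT box. Of 32851 such windows in RefSeq, 6.02% held the E-box, 32.7% the GC box and 33.8% the CCAAT box. The letters TGGAAA, the core bound by the osmotic stress factor NFAT5, occurred in 18.6% of all windows and in neither printed window. A match describes the letters only, and binding was not measured. Starts for 4 of the 5 genes were found in the RefSeq table, with no entry for Galm. Before the first start of Galt, which rose, there were 1 E-box at 42 bases, as in the Galk1 window, GC boxes at 75 and 10 bases and CCAAT boxes at 238 and 25 bases. That window is not printed, since all its 250 bases lie in an annotated exon of Galt. The window before the first start of Galk2 held 1 GC box at 195 bases and is not printed because Galk2 did not pass the test.

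Under D-gal, the genes of the 5 enzymes did not move one way. Galm, Galt and Ugp2 rose, Galk1 fell, and Galk2 did not pass the test. The rises were 1.61-fold for Galm, 1.30-fold for Galt and 1.29-fold for Ugp2, and Galk1 reached 0.766 of its control level. Calls were made at an adjusted p under 0.05 in the quasi-likelihood test of edgeR, adjusted by Benjamini-Hochberg over the 13407 genes with enough counts to be tested, among which all 5 members were found. At this threshold 34.8% of the genes tested were called, 16.9% higher and 17.8% lower, against 4 of 5 members, of which 3 were higher and 1 lower. The median log2 fold change of the members was 0.37, against 0.0036 over all genes tested. No member reached a log2 fold change of 1 in either direction, a size that 4.21% of the genes tested reached together with the adjusted p.

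**Figure D1:**
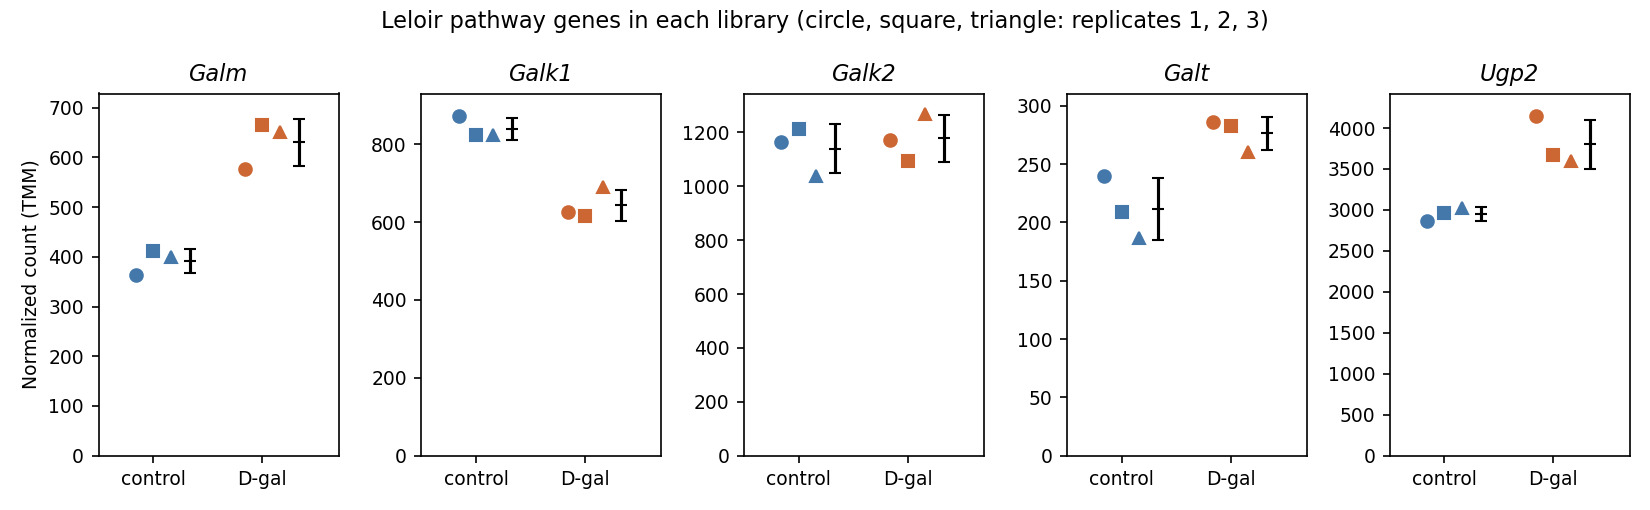
Normalized counts (vertical axis, starting at 0) of the 5 Leloir pathway genes in each of the 3 control and 3 D-gal libraries, with the mean and SD of each group in black. The groups stand apart for Galm, Galk1, Galt and Ugp2, with Galk1 lower under D-gal, and overlap for Galk2.

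Galm (ENSMUSG00000035473), the mutarotase at the entry of the pathway, had normalized counts of 364, 412 and 399 with PBS and of 577, 665 and 651 with D-gal. Normalized counts are counts scaled by TMM, which evens out library size and composition. Every D-gal library was above every control library by a wide margin. The means were 392 ± 24.7 and 631 ± 47.3 (SD, n = 3 each), a log2 fold change of 0.69 with a standard error of 0.08 and a 95% interval of 0.50 to 0.87 (edgeR adjusted p = 4.5e-04). Of all genes tested, 10.4% had a larger difference in size. In the GENCODE M21 annotation of GRCm38, Galm covers 57631 bp of chromosome 17 (plus strand, 80127471 to 80185101), with 2 transcripts, and its exons overlap no other gene.

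Galk1 (ENSMUSG00000020766), the galactokinase, differed in the opposite direction. The control libraries had normalized counts of 872, 823 and 823, and those with D-gal had 625, 616 and 689. The control values lay close together, with a coefficient of variation of 3.41%, and all were above the D-gal libraries. The mean fell from 839 ± 28.6 to 643 ± 40.0 (SD, n = 3 each), a change of -23.4%. The log2 fold change was -0.38 with a standard error of 0.06 and an interval of -0.53 to -0.24 (edgeR adjusted p = 0.0023). Galk1 is a compact gene of 4263 bp on the minus strand of chromosome 11 (116008457 to 116012719) with 1 transcript, and none of its 31-base words occur in another annotated gene.

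Galk2 (ENSMUSG00000027207), the paralog, had normalized counts of 1165, 1214 and 1039 in control and 1173, 1094 and 1269 in D-gal libraries. The groups overlapped. The means were 1139 ± 90.3 and 1179 ± 87.5 (SD, n = 3 each), and the log2 fold change of 0.05 had an interval of -0.13 to 0.22 (edgeR adjusted p = 0.669). This interval leaves out a fall as large as that estimated for Galk1. Galk2 covers 125191 bp of chromosome 2 (plus strand, 125859109 to 125984299) with 9 transcripts, of which 6 are coding. Its exons share 283 bases with Fam227b, which had at most 4 counts in a library, and 31 bases with Cops2, both on the opposite strand.

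Galt (ENSMUSG00000036073), the uridylyltransferase and the least expressed of the 5 genes, had counts of 275, 256 and 185 in control and 255, 259 and 216 in D-gal libraries before scaling. Scaled to equal depth these became 239.6, 209 and 187 in control and 286, 283 and 260.3 in D-gal libraries, and the groups then stood apart. The means were 212 ± 26.5 and 276 ± 14.1 (SD, n = 3 each). The log2 fold change was 0.38 with a standard error of 0.11 and an interval of 0.13 to 0.64 (edgeR adjusted p = 0.0289). This call was lost when any of 4 libraries was left out: the adjusted p was 0.0770 without control replicate 2, 0.0766 without control replicate 3, 0.0779 without D-gal replicate 1 and 0.0758 without D-gal replicate 2, at log2 fold changes of 0.30 to 0.37.

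Galt covers 3468 bp of chromosome 4 (plus strand, 41755228 to 41758695) and has 10 transcripts, of which 2 are coding. Whether reads were counted by strand is not given in the sources used here, so the Galt counts may hold reads from transcripts of the other strand, and their part in the result was not tested.

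Ugp2 (ENSMUSG00000001891), which supplies the UDP-glucose that Galt consumes, had normalized counts of 2864, 2959.6 and 3025 in control and 4147, 3666 and 3598 in D-gal libraries. All D-gal libraries were above all control libraries, and the first was higher than the other two. The mean rose from 2949 ± 81.0 to 3804 ± 299 (SD, n = 3 each), a log2 fold change of 0.37 with a standard error of 0.06 and an interval of 0.24 to 0.50 (edgeR adjusted p = 0.00178). Ugp2 covers 50064 bp of chromosome 11 (minus strand, 21321138 to 21371201), with 4 transcripts of which 2 are coding.

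The exact two-sided permutation test over the libraries gave p = 0.1 for Galm, Galk1, Galt and Ugp2, the smallest p that 3 libraries against 3 allow, and p = 0.6 for Galk2. Groups that did not overlap were found for 4 of the 5 members and for 49.1% of all genes tested. Because the D-gal libraries were shallower, all counts were also thinned to the smallest total, and the log2 fold changes were then 0.70 for Galm, -0.41 for Galk1, 0.07 for Galk2, 0.40 for Galt and 0.37 for Ugp2. The calls of Galm, Galk1 and Ugp2 held in all 14 alternatives, with log2 fold changes of 0.64 to 0.75, -0.44 to -0.34 and 0.30 to 0.40.

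**Figure D2:**
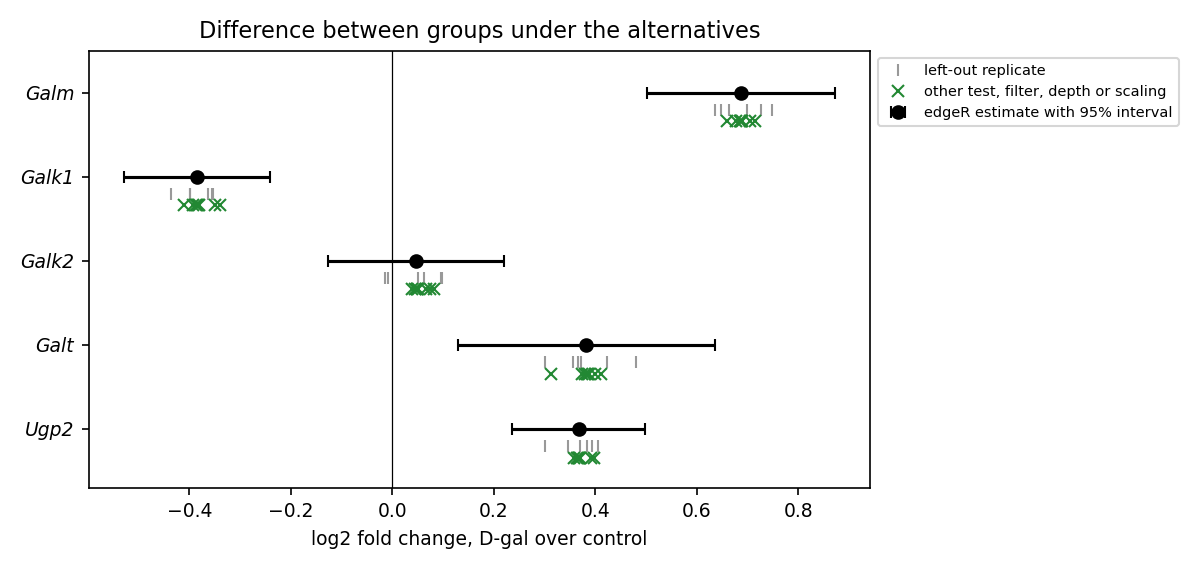
Log2 fold change of each gene (horizontal axis, D-gal over control) with its 95% interval in black, the 6 estimates with 1 library left out as grey ticks, and the other alternatives as green crosses. The estimates of Galm, Galt and Ugp2 stay above 0, those of Galk1 stay below 0, and those of Galk2 lie on both sides of 0, between -0.02 and 0.10.

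Levels were compared between genes per length, as RPKM, which are counts per kilobase of exon scaled to a common library size, here computed over merged annotated exons with TMM scaling. In control cells Ugp2 was the most abundant at 57.3 ± 1.57, followed by Galk1 at 35.6 ± 1.21, Galk2 at 11.2 ± 0.884, Galm at 9.43 ± 0.594 and Galt at 5.11 ± 0.640 (SD, n = 3 each). No neighbours in this order overlapped, although Galk2 (10.2 to 11.9) and Galm (8.77 to 9.92) lay close. Against all genes tested, Ugp2 was above 94.5% and Galt above 44.8%.

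In D-gal cells the levels per length were 73.8 ± 5.81 for Ugp2, 27.3 ± 1.69 for Galk1, 15.2 ± 1.14 for Galm, 11.5 ± 0.856 for Galk2 and 6.67 ± 0.340 for Galt (SD, n = 3 each). Galm lay ahead of Galk2 in this group, and again no neighbours overlapped. The ends of the order, Ugp2 and Galt, were the same in both groups. The order of Galk2 and Galm in control cells depends on the length: the deposited FPKM divide by longer lengths (8385 instead of 6088 bases for Galk2, 5007 instead of 2471 for Galt), and on that scale Galm at 8.58 and Galk2 at 7.99 overlapped in control cells.

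**Figure D3:**
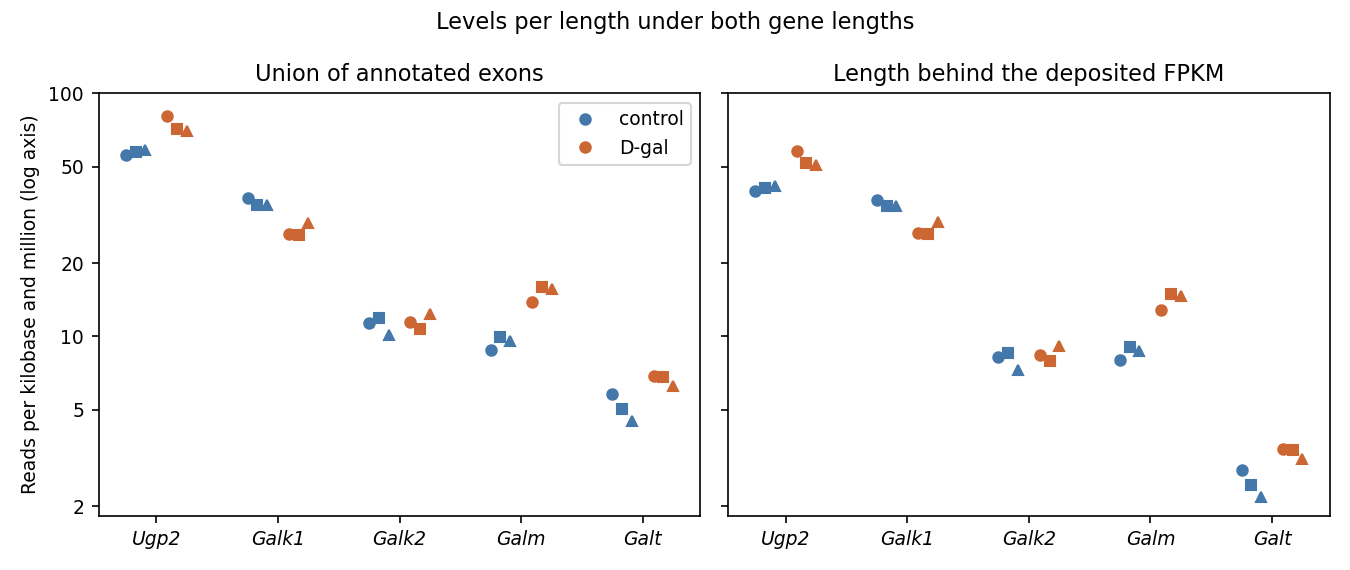
Level of each gene per kilobase at a common library size (logarithmic vertical axis) in each library (circle, square and triangle for replicates 1, 2 and 3), with the merged exon length on the left and the deposited FPKM on the right. Ugp2 is highest and Galt lowest on both scales, and Galm passes Galk2 under D-gal on the left.

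Ratios between genes within a library do not depend on how libraries are scaled. The level of Galk1 per length was 3.24, 2.93 and 3.43 times that of Galk2 in control libraries and 2.31, 2.44 and 2.35 times in D-gal libraries. The ratio was lower in every D-gal library, by -0.43 on the log2 scale (exact permutation p = 0.1, the smallest possible). Expressed as a share, Galk1 made up 74.6% to 77.4% of the summed level of both kinase genes with PBS and 69.8% to 70.9% with D-gal.

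The genes of the steps on either side stood higher relative to Galk1 in every D-gal library. The ratio of Galm to Galk1 was 0.237, 0.284 and 0.275 in control and 0.524, 0.613 and 0.536 in D-gal libraries, a log2 difference of 1.07. The ratio of Galt to Galk1 went from between 0.129 and 0.156 to between 0.215 and 0.261, a log2 difference of 0.78, and that of Ugp2 to Galk1 from between 1.50 and 1.68 to between 2.39 and 3.04, a log2 difference of 0.75. For each of the 3 ratios the groups did not overlap (exact permutation p = 0.1 each). This follows from the normalized counts, where Galm, Galt and Ugp2 were higher and Galk1 lower in every D-gal library. These ratios are therefore no separate test.

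In contrast, the ratio of Ugp2 to Galt was 9.62, 11.4 and 13.0 in control and 11.7, 10.4 and 11.1 in D-gal libraries. These values overlapped, with a log2 difference of -0.03 (exact permutation p = 0.9). After Benjamini-Hochberg adjustment over the 5 ratios the permutation p was 0.125 for the other 4 ratios.

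**Figure D4:**
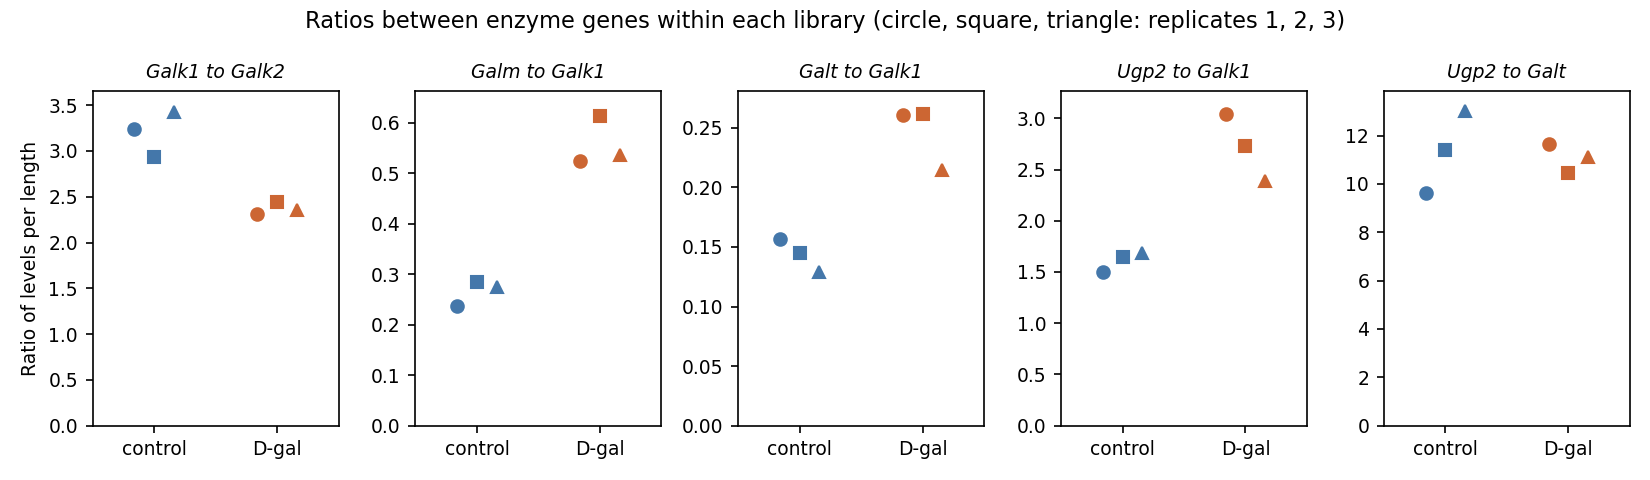
Ratios of levels per length between pairs of genes within each library (vertical axes start at 0), for control and D-gal libraries. The Galk1 to Galk2 ratio is lower under D-gal, the ratios of Galm, Galt and Ugp2 to Galk1 are higher, and the Ugp2 to Galt ratio overlaps between the groups.

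The genes that make or use the products of the pathway were described as a list of 20 UDP-sugar and glycogen genes, of which 19 were tested. Of these, 3 were higher, 6 lower and 10 did not pass the test, against the 34.8% called over all genes, with a median log2 fold change of -0.06. Ugdh, which oxidises UDP-glucose to UDP-glucuronic acid, fell from 4184 ± 139 to 2948 ± 120 normalized counts (SD, n = 3 each), a log2 fold change of -0.50 with a standard error of 0.04 (edgeR adjusted p = 9.3e-05). Ugcg, which puts glucose from UDP-glucose onto ceramide, had a log2 fold change of -0.73 (edgeR adjusted p = 1.3e-04). Uggt2, which uses UDP-glucose to tag misfolded glycoproteins, had one of -0.38 (edgeR adjusted p = 0.00143).

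The lowest value of the list was that of Uap1l1, a relative of the enzyme that makes UDP-N-acetylglucosamine, at -1.07 (edgeR adjusted p = 2.1e-05), and that enzyme's own gene, Uap1, was at -0.33 (edgeR adjusted p = 0.00442).

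On the glycogen side, Gys1, the glycogen synthase of muscle and many other cells, rose from 878 ± 26.9 to 1059 ± 38.1 normalized counts (SD, n = 3 each), a log2 fold change of 0.27 (edgeR adjusted p = 0.00461). Gbe1, the glycogen branching enzyme, rose by 0.50 on the log2 scale (edgeR adjusted p = 0.00848). Phosphoglucomutase activity interconverts glucose-1-phosphate and glucose-6-phosphate. The table's symbols Pgm1 and Pgm2 are swapped against the reference, and the part of each gene's enzyme in this step was not tested. ENSMUSG00000025791, Pgm2 in the table and Pgm1 in the reference, rose by 0.33 on the log2 scale (edgeR adjusted p = 0.0111). ENSMUSG00000029171, Pgm1 in the table and Pgm2 in the reference, fell by 0.28 on the log2 scale (edgeR adjusted p = 0.0308), and this call was lost with a replicate block, with limma and without any of 4 libraries (adjusted p of 0.0506 to 0.0919). Exons of some genes named from these lists overlap other genes in GENCODE M21. With genes on the opposite strand, the table's Pgm2 shares 398 bases, Gys1 310, Uggt2 220, Hk1 157 and Slc2a1 105. Ugdh shares 158 bases with genes on the same strand. The counts of these genes may hold reads of the overlapping genes. Galc shares 400 bases on the opposite strand and Glb1 165 on the same strand. For Galc and Glb1 the deposited positions differ from GENCODE M21, so whether the overlap applies to their counts is not known.

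Slc35a2, which carries UDP-galactose into the Golgi, had normalized counts of 282, 262 and 395 in control and 195, 331 and 419 in D-gal libraries. Its replicates spread more widely than those of any member, the groups overlapped, and the log2 fold change of 0.01 had an interval of -0.60 to 0.62 (edgeR adjusted p = 0.979). This interval holds changes as large as those of Galt, Ugp2 and Galk1 in either direction, so changes of that size were not detectable for this gene.

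Of 21 genes for hexose entry and phosphorylation, 14 were tested. Of these, 5 were higher, none lower and 9 did not pass the test, with a median log2 fold change of 0.10. Over all genes tested 34.8% were called, so 5 of 14 called in either direction is near the background. By direction, 16.9% of all genes tested were higher and 17.8% lower. Slc2a4, of the same list, had too few counts to be tested, with means of 0.816 ± 1.41 normalized counts in control and 10.8 ± 5.40 in D-gal libraries (SD, n = 3 each). Among the tested genes of this list, the largest difference in size was that of Slc2a6, a lysosomal hexose transporter with few counts. Slc2a6 had 23.5, 11.4 and 14.1 normalized counts with PBS and 5.61, 5.46 and 9.64 with D-gal. The groups did not overlap, but its log2 fold change of -1.24 did not pass the test (edgeR adjusted p = 0.0577). Slc2a1, the glucose transporter GLUT1, which also carries galactose, rose from 1774 ± 54.1 to 2389 ± 92.1 normalized counts (SD, n = 3 each), a log2 fold change of 0.43 with a standard error of 0.04 (edgeR adjusted p = 2.0e-04). Slc2a3, which encodes GLUT3, rose from 39.7 ± 2.03 to 70.1 ± 10.8 (SD, n = 3 each), and Slc2a13, a transporter of myo-inositol, from 36.4 ± 7.54 to 72.9 ± 9.72 (SD, n = 3 each). Their log2 fold changes were 0.82 (edgeR adjusted p = 0.00859) and 1.01 (edgeR adjusted p = 0.00715). Hexokinase 2 (Hk2), which phosphorylates glucose, rose by 0.27 on the log2 scale (edgeR adjusted p = 0.00491), and G6pc3, a glucose-6-phosphatase, by 0.53 (edgeR adjusted p = 0.00955). Hk1 was at 0.03 (edgeR adjusted p = 0.578).

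Of 13 genes for galactose release and reduction, 12 were tested, and 4 were higher, 4 lower and 4 not past the test. Over all genes tested 34.8% were called, 16.9% higher and 17.8% lower. Akr1b3, an aldose reductase, which can reduce galactose to galactitol, had normalized counts of 539, 565 and 504 in control and 2381, 3079 and 2604 in D-gal libraries. No value in either group came near the other group. Its log2 fold change of 2.32 (standard error 0.10, edgeR adjusted p = 4.5e-06) exceeded that of every Leloir gene. Akr1b8 and Akr1b10, paralogs on the same chromosome between which reads may be split, were at 0.37 (edgeR adjusted p = 0.00123) and 0.36 (edgeR adjusted p = 0.00931). Akr1a1, an aldehyde reductase and the most abundant reductase gene of the list, fell from 5685 ± 71.6 to 5072 ± 287 normalized counts (SD, n = 3 each), a log2 fold change of -0.16 (edgeR adjusted p = 0.0212).

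Sord, the sorbitol dehydrogenase that follows aldose reductase in the polyol pathway, fell from 316 ± 28.0 to 187 ± 4.91 normalized counts (SD, n = 3 each), a log2 fold change of -0.76 (edgeR adjusted p = 6.4e-04). Among the lysosomal enzymes that free galactose from glycolipids and glycans, Gla fell (-0.54, edgeR adjusted p = 0.00241) and Galc rose (0.25, edgeR adjusted p = 0.0350). Galns, a lysosomal sulfatase of the same list, fell (-0.37, edgeR adjusted p = 0.0410). Glb1, which encodes the lysosomal β-galactosidase, had 791 ± 30.7 normalized counts in control and 773 ± 30.1 in D-gal cells (SD, n = 3 each), groups that overlapped, with a log2 fold change of -0.03 (edgeR adjusted p = 0.685). Without control replicate 2, 5 instead of 8 genes of this list passed the test.

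A list of GHMP kinases, the enzyme family to which galactokinase belongs, and of related or neighbouring enzymes gave 4 tested genes. They were the kinases Mvk and Fuk, the decarboxylase Mvd, and Pmvk, which follows Mvk in the mevalonate pathway. None passed the test in edgeR, which called 34.8% of all genes tested. Their log2 fold changes lay between -0.10 and -0.04, with no unadjusted p below 0.126. The fall of Galk1 had no counterpart of its size among these estimates, and the difference between the genes was not tested.

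**Figure D5:**
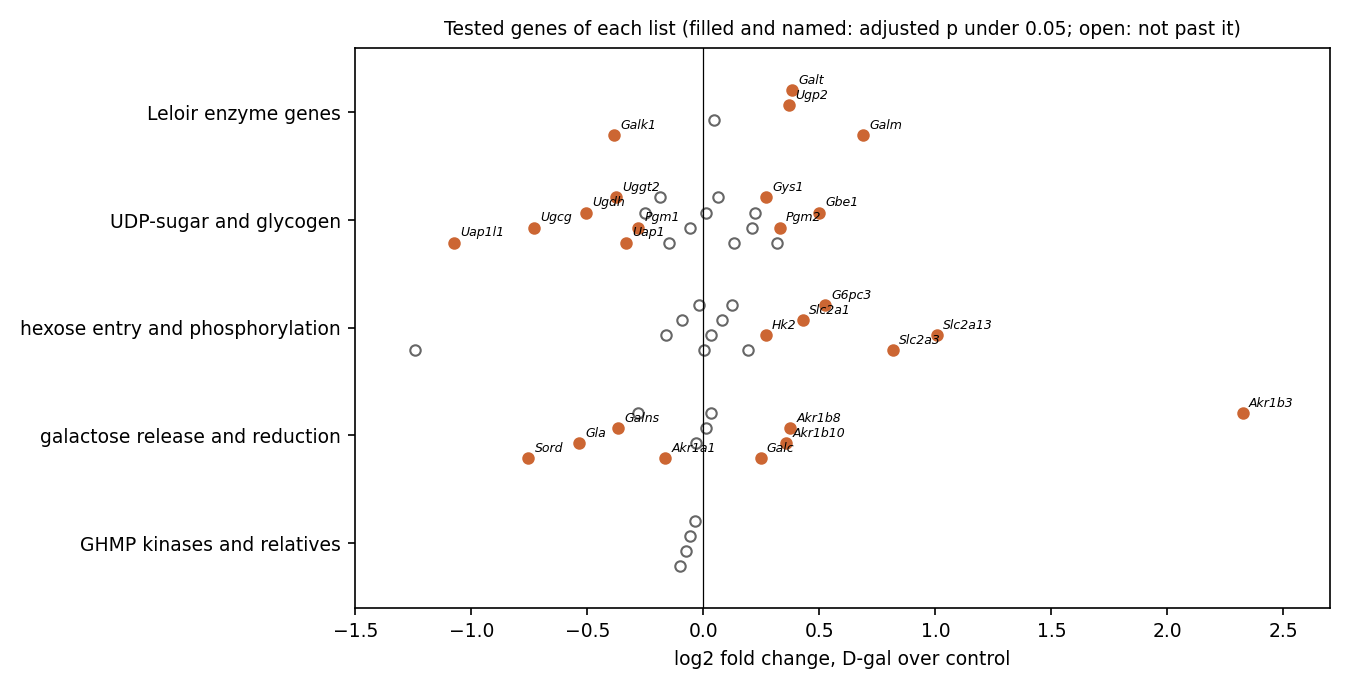
Log2 fold changes (horizontal axis, D-gal over control) of the tested genes of the 5 Leloir enzymes and the 4 lists, with filled points for genes past an adjusted p of 0.05 and symbols as in the deposited table. Akr1b3 stands farthest to the right at 2.32, and in the hexose entry list the filled points lie on the right and the open point of Slc2a6 lies farthest to the left at -1.24.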

How the data were processed

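NOR-10 libraries were grouped as control and D-gal from the sample labels, with dose and duration from the study's methods. The deposited table holds a count of reads for each gene and library, which the authors gave without normalization, and FPKM values, which the authors computed from these counts. The count divided by the FPKM equals a gene length in which overlapping exons are counted repeatedly for 4 of the members, so levels between genes were computed over merged exons. According to the methods, reads were checked with FastQC and trimmed with Trimmomatic, and the submitters' processing notes name HISAT2 (2.0.4). The counting tool, strand setting, build and annotation are not given in the sources used here. Gene positions equal those of GENCODE M21 (GRCm38) for all 5 members. The methods and the labels name different library kits. Some genes are not reported here.

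Differences were tested with edgeR (4.0.16, R 4.3.3) with TMM, filterByExpr and the quasi-likelihood test on 3 against 3 libraries, tested on simulated data. Ratios were tested by exact permutation. Named list genes are the 4 with the smallest p of each list among those past the threshold and the neighbours Pgm1, Pgm2, Slc35a2, Ugdh, Gys1 and Akr1b3. Others were named after their values were seen. The members and lists were chosen with earlier results of these data known. Alternatives were RLE size factors, no filter, at least 10 counts in every library, DESeq2 (1.42.0), the replicate number as a block, thinned counts (seed 7), limma (3.58.1) on log2(FPKM + 1) and log2(FPKM + 0.1), and each library left out.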

Additional observations from a re-analysis of the deposited data

How the results depend on the processing

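Of the values recomputed under the alternatives, 435 kept their direction and their side of the threshold, or moved little, 11 no longer passed the threshold, 7 changed sign and 2 counts moved by over 1.5 times. With limma on log2(FPKM + 1), 120 instead of 564 genes passed both the adjusted p and the fold threshold. With limma on log2(FPKM + 0.1), 411 did. An added 1 shrinks the differences of low genes, and its part in the lower number was not tested. Leaving out each library in turn gave log2 fold changes of 0.30 to 0.48 for Galt, -0.02 to 0.10 for Galk2 and -0.25 to 0.26 for Slc35a2, and 5 to 8 called genes in the galactose release and reduction list. Galk2 turned below 0 without control replicate 3 (-0.015) and without D-gal replicate 3 (-0.0092). Slc35a2 turned below 0 without control replicate 1 (-0.06), control replicate 2 (-0.10), D-gal replicate 2 (-0.03) and D-gal replicate 3 (-0.25). The replicate numbers did not pair the libraries: deviations of libraries with the same number correlated at -0.01 to 0.03, and 2 of 6 libraries correlated best with their own number. With the replicate block, 4 Leloir genes and 3982 genes in all passed the adjusted p, against 4661 without it, Slc35a2 was at -0.022 and the table's Pgm1 at -0.28 (edgeR adjusted p = 0.0556). The causes of these changes were not tested. With 3 libraries a group, Galt at 185 to 275 counts a library is the member whose call rests on the least depth.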

Other observations

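The genes whose pattern over the 6 libraries was most like that of a member were found among 9878 genes with at least 100 counts in every library, by the root mean square difference in log2 normalized count after subtracting the control mean of each gene. Nearest to Galm was Etfdh, which encodes a flavoprotein dehydrogenase of the mitochondrial electron transfer chain, at 0.0333, followed by Arhgap24 at 0.0476 and Hacd2 at 0.0502. The median difference from Galm over all genes compared was 0.507.

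Nearest to Galk1 were Rpl32, a protein of the large ribosomal subunit, at 0.0191, Tmem176b at 0.0224 and Irf2bp2 at 0.0274. For Galk2 they were Pigc at 0.0267 and the helicase gene Wrn at 0.0388. For Galt they were Eml6 at 0.0526, F11r at 0.0566 and Ccdc85a at 0.0582, and for Ugp2 Pmepa1 at 0.0325, Lactb at 0.0420 and Elmod3 at 0.0446. Among the members themselves the closest pair by this measure was Galt and Ugp2 at 0.136 and the farthest Galk1 and Galm at 0.765. With so many genes and 6 libraries, near matches are common, and these are descriptions only.

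Cops2, a subunit of the COP9 signalosome that overlaps 31 exon bases of Galk2 on the opposite strand, rose from 2992 ± 114 to 3764 ± 227 normalized counts (SD, n = 3 each), a log2 fold change of 0.33 (edgeR adjusted p = 0.00175). Il11ra1, whose span holds Galt on the same strand without shared exon bases, had a log2 fold change of -0.16 (edgeR adjusted p = 0.203). Both were named after their values were seen.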
